A study of Chlorocebus sabaeus with 3 samples.

Results

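KIT and endothelin signaling was read across the cornea, the limbus, and the conjunctiva of the vervet monkey (Chlorocebus sabaeus) from 6 genes: the receptor KIT and its ligand KITLG, the endothelin receptors EDNRB and EDNRA, and the endothelins EDN1 and EDN3. A probe set belonged to a gene when the array annotation gave it that symbol and no other. This gave 13 probe sets for 5 of the 6 genes, out of 41097 probe sets with a single symbol and 54675 on the array. EDNRA had 0 such probe sets and was not analysed here. The genes were chosen by their values on these arrays, because KIT and EDNRB were highest in the cornea while pigment genes were highest in the limbus. Those values are therefore a description and support nothing by themselves.

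KIT is a receptor tyrosine kinase at the cell surface. Its ligand, KITLG or stem cell factor, is made by epithelial and stromal cells in a membrane-bound and a secreted form. The pair is known for the survival and migration of melanocytes and for mast cells, germ cells, and blood progenitors. Endothelins are short peptides cut from longer precursors by proprotein convertases and then by endothelin-converting enzymes, and they act on G protein-coupled receptors. EDNRA prefers EDN1 and EDN2 and is known from smooth muscle, whereas EDNRB binds all endothelins. EDN3 and EDNRB are required for melanocyte precursors of the neural crest, and EDN1 is a vasoconstrictor of endothelial cells that keratinocytes also release.

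Each tissue was represented by 1 human Affymetrix U133 Plus array, with no treatment and no replicate. The study used a human array for lack of a vervet one. How well its probes match vervet transcripts was not tested here, so low values are not read as low expression. The study states that the tissues came from the same eye, and it gives age only as a range across animals. Each dissected piece held epithelium with the stroma, or in the conjunctiva with the Tenon tissue, beneath it. No difference could be set against a replicate error, so no p-value is given, and precision is limited by the number of arrays. In such bulk samples, fewer cells of a type and less RNA per cell cannot be told apart.

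The deposited values were RMA intensities on a linear scale, a background-corrected brightness brought to a common distribution. Their median was between 48.8 and 50.7 on the 3 arrays, and a value of at least 100, taken here as clearly above the bulk of probe sets, was reached by 29.8% to 30.4% of probe sets. The labels were in keeping with the defining markers. KRT12, the keratin of corneal epithelium, was at 8068 in cornea, 2633 in limbus, and 54.3 in conjunctiva, and the goblet cell mucin MUC5AC was at 102, 127, and 1618 in the same order. The 3′ to 5′ signal ratio of GAPDH, a measure of RNA length, was 4.58 in cornea, 3.12 in limbus, and 3.83 in conjunctiva, and that of ACTB was 11.2, 11.8, and 10.3, so the tissues had another order on the second gene. The geometric mean of the hybridization controls was 1128, 735, and 902. The part of these technical differences in the values below was not tested, but dividing each array by its hybridization controls was tried. It moved the ratio of cornea over limbus of all probe sets by -0.62 on the log2 scale, that of cornea over conjunctiva by -0.32, and that of limbus over conjunctiva by 0.29.

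Of the 13 probe sets, 11 peaked in cornea, 0 in limbus, and 2 in conjunctiva. Over all probe sets with a single symbol the share highest in the cornea was 37.6%. A probe set passed the 2-fold rule for a tissue when its linear value there was 2-fold or more over each of the others. This rule was passed for the cornea by 3 probe sets, 1 of KIT and 2 of EDNRB, against 1.55% of all such probe sets and 3.09% of those that reached 100. The choice of genes used this contrast, so nothing is read from these shares. After division by the hybridization controls, 7 of the 13 were highest in the cornea and 5 in the limbus, and 1, that of KIT, passed the rule for the cornea.

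**Figure D1:**
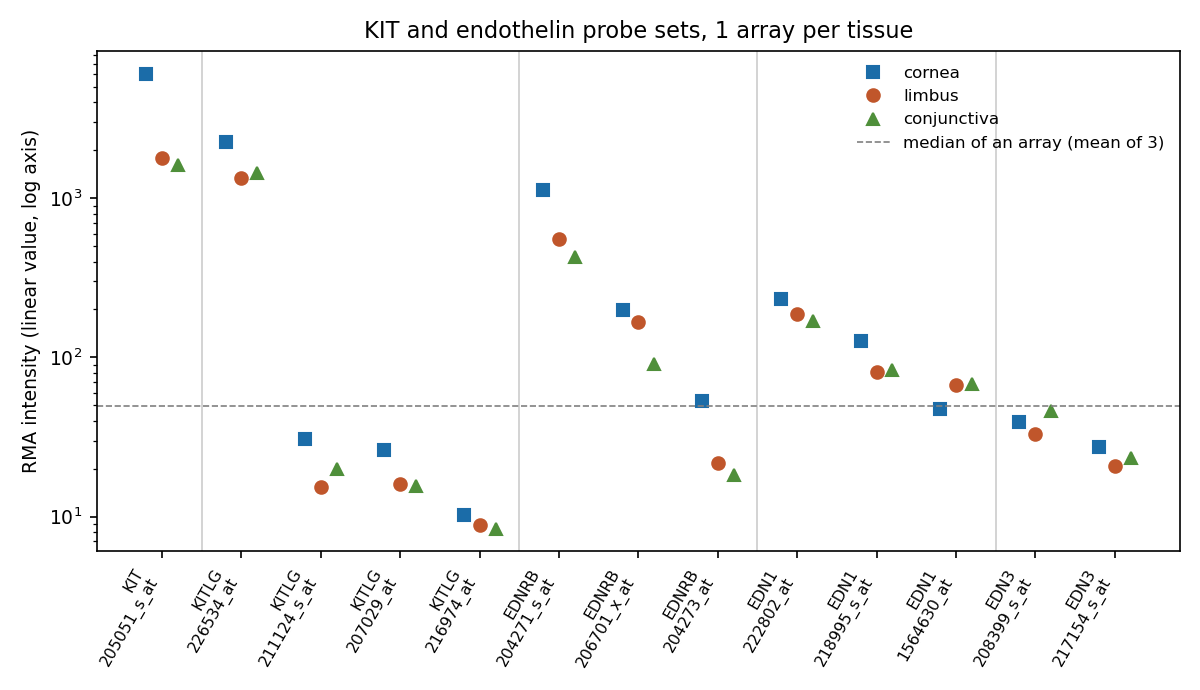
RMA intensity (linear values on a log axis) of the 13 probe sets of KIT, KITLG, EDNRB, EDN1, and EDN3 in the cornea (squares), the limbus (circles), and the conjunctiva (triangles), with 1 array per tissue and no error bars; the dashed line is the mean of the array medians. KIT is at 6078 in the cornea against 1791 and 1607, and the 2 EDN3 probe sets lie below the line in every tissue.

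KIT had a single named probe set (205051_s_at). Its value was 6078 in cornea, 1791 in limbus, and 1607 in conjunctiva. The ratio of cornea over limbus was thus 3.39 and that of cornea over conjunctiva 3.78, while that of limbus over conjunctiva was 1.11. The cornea stood apart and the other tissues lay close together. Among 16811 single-symbol probe sets that reached 100 in any tissue, 101 (0.601%) had ratios at least as high as those of KIT in both comparisons. Since KIT was chosen for its peak in the cornea, nothing is read from this share. The log2 ratio of cornea over limbus was 1.76 and that of cornea over conjunctiva 1.92, and they stayed at 1.15 and 1.60 after division by the hybridization controls. With no second probe set of KIT, this value has no check within the array. The suffix of the probe set name marks probes that can match more than 1 transcript.

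KITLG, the ligand, had 4 probe sets, and all 4 were highest in the cornea, although with the hybridization controls the dimmest (216974_at) was highest in the limbus. The bright one (226534_at) was at 2246 in cornea, 1339 in limbus, and 1436 in conjunctiva. The cornea exceeded limbus by 1.68-fold and conjunctiva by 1.56-fold, so the ligand missed the 2-fold rule that its receptor passed. The limbus was at 0.932 of the conjunctiva, an order that turned with quantile normalization and after division by the hybridization controls, so these tissues have no settled order. The remaining 3 probe sets reached at most 30.7. Among them 207029_at, at 26.2 in cornea and lower in the other tissues, came nearest to the 2-fold rule from below, with 1.64-fold over the limbus and 1.68-fold over the conjunctiva. Probe set 211124_s_at, at 30.7, 15.4, and 19.9, had 1.99-fold and 1.54-fold. With the hybridization controls the log2 ratio of the bright probe set shrank to 0.13 over the limbus and 0.32 over the conjunctiva.

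EDNRB, the receptor that melanocyte precursors need, had 3 probe sets, and each had the order cornea, limbus, conjunctiva from high to low, except that the limbus led on the second with the hybridization controls. The brightest (204271_s_at) was at 1134 in cornea, 558 in limbus, and 429 in conjunctiva. The second (206701_x_at) was at 198, 167, and 91.3, and the third (204273_at) at 53.4, 21.6, and 18.1. The probe sets shared the order but not the size. The ratio of cornea over limbus was 2.03 on the brightest, 1.19 on the second, and 2.47 on the third, and that of cornea over conjunctiva was 2.64, 2.17, and 2.95.

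The brightest EDNRB probe set passed the 2-fold rule by the narrowest margin, at 2.03-fold over the limbus. It fell short of it after quantile normalization of the arrays (log2 ratio 0.87), with a pseudocount of 32 (0.98), and after division by the hybridization controls (0.41). The ratio over the conjunctiva held at 2-fold or more under each of these (log2 ratios 1.24, 1.34, and 1.08). The antisense RNA EDNRB-AS1, which is no member, was at 14.6 in cornea, 19.2 in limbus, and 21.7 in conjunctiva on its only probe set, the opposite order at values far under the array median.

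Where a gene has exactly 2 probe sets that reached 100, these had the same highest tissue in 51.4% of 2656 genes. The share was 58.2% of 1276 genes when the brighter probe set was highest in the cornea. EDNRB and EDN1 are both such genes, and their bright probe sets agreed on the cornea as deposited. With the hybridization controls the limbus led on the second EDNRB and on the brightest EDN1 probe set, so this agreement was lost for both genes. The comparison is one of the highest tissue and not of the size of a ratio.

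EDN1, the endothelin of vessel walls and epithelia, had 3 probe sets. The brightest (222802_at) was at 232 in cornea, 188 in limbus, and 170 in conjunctiva, with ratios of 1.23 over the limbus and 1.36 over the conjunctiva. The second (218995_s_at) was at 127, 81.1, and 82.7, with ratios of 1.57 and 1.54. The third (1564630_at) went the other way, at 47.3, 66.8, and 68.3, and its cornea value was under the array median. The order of the cornea and the limbus on the brightest probe set turned after division by the hybridization controls (log2 ratio 0.30 as deposited and -0.32 with the controls). EDN1 thus had no difference between tissues that held across probe sets and scalings.

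EDN3, the endothelin paired with EDNRB in the neural crest, was below the array median in every tissue on both probe sets. The first (208399_s_at) was at 39.3 in cornea, 32.9 in limbus, and 46.0 in conjunctiva, and the second (217154_s_at) at 27.2, 20.9, and 23.3. The probe sets differed in their highest tissue. EDN2, the remaining endothelin, was at 79.2, 96.0, and 88.0 on its single probe set. No probe set of these endothelins differed by 2-fold or more between any pair of tissues.

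In the separate comparisons of tissues, 3 of the 13 probe sets had a ratio of 2 or more for cornea over limbus (2.20% of all probe sets with a single symbol) and 4 for cornea over conjunctiva (4.59%). None had such a ratio for limbus over conjunctiva (2.22%), and none was 2-fold lower in any comparison. In order from high to low, 7 probe sets had cornea, limbus, conjunctiva, and 4 had cornea, conjunctiva, limbus. Among probe sets that reached 100 these orders made up 27.4% and 16.1%.

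The limbus lies between the other tissues, and its place on the log2 scale was measured from 0, the conjunctiva, to 1, the cornea. KIT was at 0.081 and the brightest EDNRB probe set at 0.27. KRT12 was at 0.78 and the corneal proteoglycan KERA at 0.54. The median over 520 probe sets that reached 100 and passed the 2-fold rule for the cornea was 0.21, with quartiles of 0.025 and 0.37. KIT and EDNRB lay within these quartiles, and 32.9% of the 520 were at or below KIT. The place is computed from the same ratios that the 2-fold rule and the choice of genes used. The rule limits how near to the cornea a place can lie, so nothing is read from these comparisons. With the hybridization controls, an alternative to this measure chosen after seeing the data, KIT moved to 0.28 and EDNRB to 0.62. The median of the cornea probe sets, then 149, moved to 0.39 with quartiles of 0.20 and 0.51. EDNRB lay above these quartiles, but with these controls it no longer passed the 2-fold rule that the 149 had to pass. Its place above them is therefore not read as a difference.

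The pigment genes had another distribution. As a background for this and later lists, 7592 of all 19775 genes were highest in cornea, 4927 in limbus, and 7256 in conjunctiva as deposited. Of 13 pigment genes measured, 3 were highest in cornea, 9 in limbus, and 1 in conjunctiva. The 2-fold rule was passed by 5 for the limbus (0.475% of all genes) against 0 for the cornea (1.89%). With the hybridization controls the counts of genes highest were 1 for the cornea and 11 for the limbus. The 5 past the rule for the limbus became 8 with these controls, and 3 with a pseudocount of 32, with genes that reached 100, or with the median over all probe sets of a gene. TYR, the first enzyme of melanin synthesis, missed the rule on its brightest probe set, at 94.4, 188, and 96.9, and passed it on another, at 19.3, 123, and 25.5. The median log2 ratio of cornea over limbus was -1.00 and that of cornea over conjunctiva -0.27, against 0.045 and 0.007 over all genes. TYRP1, an enzyme of melanin synthesis, was at 11.7 in cornea, 290 in limbus, and 21.6 in conjunctiva, and the melanosome protein PMEL was at 212, 695, and 420. MLANA, a melanosome protein recognized by T cells, was at 32.9, 303, and 113, and its cornea value was 0.109 of that in the limbus. Opposed to these was MLPH, which links melanosomes to the cell's transport motors and was at 554, 278, and 376. KIT and EDNRB were on the side of MLPH, with the cornea highest. Whether they differ from the pigment genes could not be tested with 1 array per tissue.

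**Figure D2:**
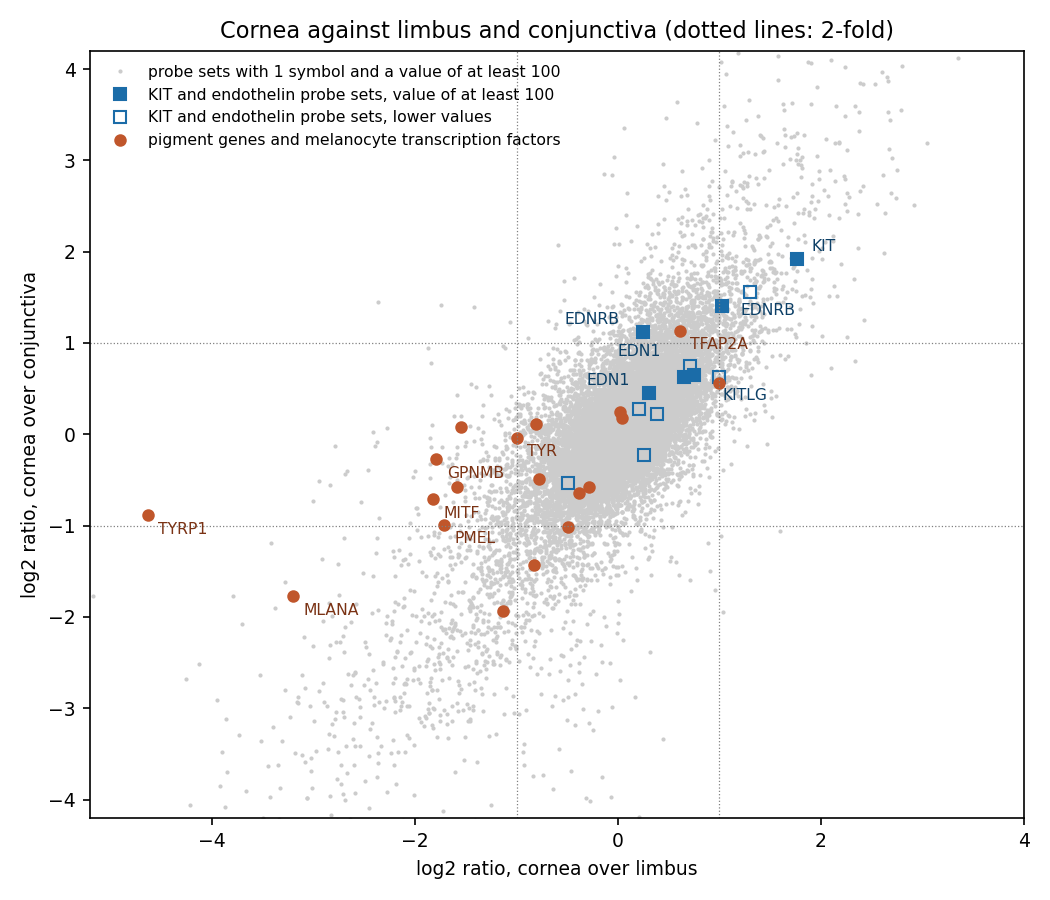
Log2 ratio of cornea over limbus (horizontal) against cornea over conjunctiva (vertical) for 16811 single-symbol probe sets that reached 100 (gray; 73 lie outside the axes), the KIT and endothelin probe sets (blue squares, open where no value reaches 100), and pigment genes and melanocyte transcription factors (orange); dotted lines mark 2-fold. KIT lies at 1.76 and 1.92, in the corner opposite to MLANA and TYRP1.

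Of 6 melanocyte transcription factors, 1 was highest in cornea, 1 in limbus, and 4 in conjunctiva, or 0, 4, and 2 with the hybridization controls. MITF, the regulator of pigment genes, was at 106 in cornea, 375 in limbus, and 174 in conjunctiva on its brightest probe set. Another MITF probe set was at 61.0, 95.8, and 99.8, so the highest tissue depended on the probe set while the cornea was lowest on all 3 MITF probe sets. TFAP2A, a factor of both surface epithelium and neural crest, was at 3567, 2340, and 1623. Its order of cornea over limbus did not hold after division by the hybridization controls. ZEB2 was at 64.3, 140, and 245, 2-fold or more below both other tissues in the cornea, as were 2.93% of all genes. The median log2 ratios of the factors were -0.61 over the limbus and -0.68 over the conjunctiva. SOX10, which activates MITF, had its cornea value lowest on both probe sets, with 88.7, 116, and 139 on the brighter and 59.6, 160, and 81.9 on the other, so that its highest tissue also depended on the probe set. PAX3 was at 30.4, 37.0, and 45.4 on its brightest of 4 probe sets, and on another at 17.3, 79.3, and 19.7, with the limbus highest.

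Other secreted factors that act on melanocytes were of low value. Of 8 measured, 3 reached 100 in any tissue, and 2 were highest in cornea, 0 in limbus, and 6 in conjunctiva, or 0, 5, and 3 with the hybridization controls. None passed the 2-fold rule for any tissue, with median log2 ratios of 0.04 for cornea over limbus and -0.23 for cornea over conjunctiva. The growth factor FGF2 was at 50.3 in cornea, 68.2 in limbus, and 117 in conjunctiva, and HGF was at 76.6, 74.9, and 76.8.

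Downstream of KIT, 26 signaling genes were measured, and 24 of them reached 100. Over all 19775 genes, the cornea, the limbus, and the conjunctiva were highest for 7592, 4927, and 7256 as deposited. For the signaling genes these counts were 8, 8, and 10, or 3, 17, and 6 with the hybridization controls. None passed the 2-fold rule for any tissue, and the median log2 ratios of cornea over limbus and over conjunctiva were -0.20 and -0.15. The adaptor GAB1 came closest in the cornea, at 715 against 366 for limbus and 251 for conjunctiva, or 1.96-fold and 2.85-fold. On another bright GAB1 probe set the ratios were 1.36 and 2.89. The phosphatase PTPN11 was at 2630, 1544, and 1745 in the cornea, the limbus, and the conjunctiva, and 2 of its 6 probe sets were highest in the cornea. PIK3R1, a subunit of the lipid kinase that binds activated KIT, was at 817, 1745, and 1255. The kinases LYN and FES, known from blood cells, were lowest in the cornea by more than 2-fold against both other tissues, with 119, 248, and 377 for LYN and 71.8, 182, and 215 for FES.

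The relatives of KIT had the other order. Of 11 receptors of the same family and their ligands, 1 was highest in cornea, 0 in limbus, and 10 in conjunctiva, although the limbus led 5 of them with the hybridization controls. Their median log2 ratios were -0.48 for cornea over limbus and -0.78 for cornea over conjunctiva. PDGFRA, a receptor of stromal fibroblasts, was at 553 in cornea, 720 in limbus, and 1029 in conjunctiva, and the macrophage receptor CSF1R was at 113, 153, and 185. PDGFC, a ligand of PDGFRA, was at 121, 338, and 935, and was the only gene of the list past the 2-fold rule for any tissue (1.68% of all genes for the conjunctiva). Only 1 of its 2 probe sets was highest there, and with the median over both the count was 0. CSF1, the ligand of CSF1R, was at 88.1, 182, and 239. PDGFA was the gene of the list highest in the cornea, at 359, 183, and 261.

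In a list of 8 genes, EDN2 and 7 enzymes that process or remove endothelins or related precursors, PCSK5 was the one past the 2-fold rule, and the median log2 ratios were -0.07 for cornea over limbus and -0.08 for cornea over conjunctiva. PCSK5, a proprotein convertase that cuts many secreted precursors, was at 5304 in cornea, 1294 in limbus, and 829 in conjunctiva, or 4.10-fold and 6.40-fold. Its other probe sets were at 524, 150, and 74.0 and at 550, 78.7, and 33.7, and all 3 passed the 2-fold rule for the cornea. The values for the enzymes known to act on endothelin precursors were closer together. FURIN was at 190 in cornea, 222 in limbus, and 301 in conjunctiva, and the endothelin-converting enzyme ECE1 was at 129, 139, and 189. Its relative ECE2 was at 175, 95.6, and 60.7 on the brightest of 3 probe sets, but the other ECE2 probe sets were highest in the conjunctiva.

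Of 22 genes of endothelin receptor signaling, 9 were highest in cornea, 7 in limbus, and 6 in conjunctiva, or 3, 16, and 3 with the hybridization controls, and the median log2 ratio of cornea over limbus was -0.12. The counts as deposited over all 19775 genes were 7592, 4927, and 7256. PLCB4, a phospholipase activated by G proteins of the Gq class, was at 695, 201, and 269, and was the gene of the list that passed the 2-fold rule in the cornea. Its second probe set, at 61.5, 33.9, and 69.7, was highest in the conjunctiva. The Gq subunit GNAQ was at 1029, 1604, and 1192 and its homolog GNA11 at 945, 873, and 714. PLCB1 had 152 in cornea, 320 in limbus, and 540 in conjunctiva. RGS5, a brake on G protein signaling known from pericytes, was at 30.9, 470, and 446.

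**Figure D3:**
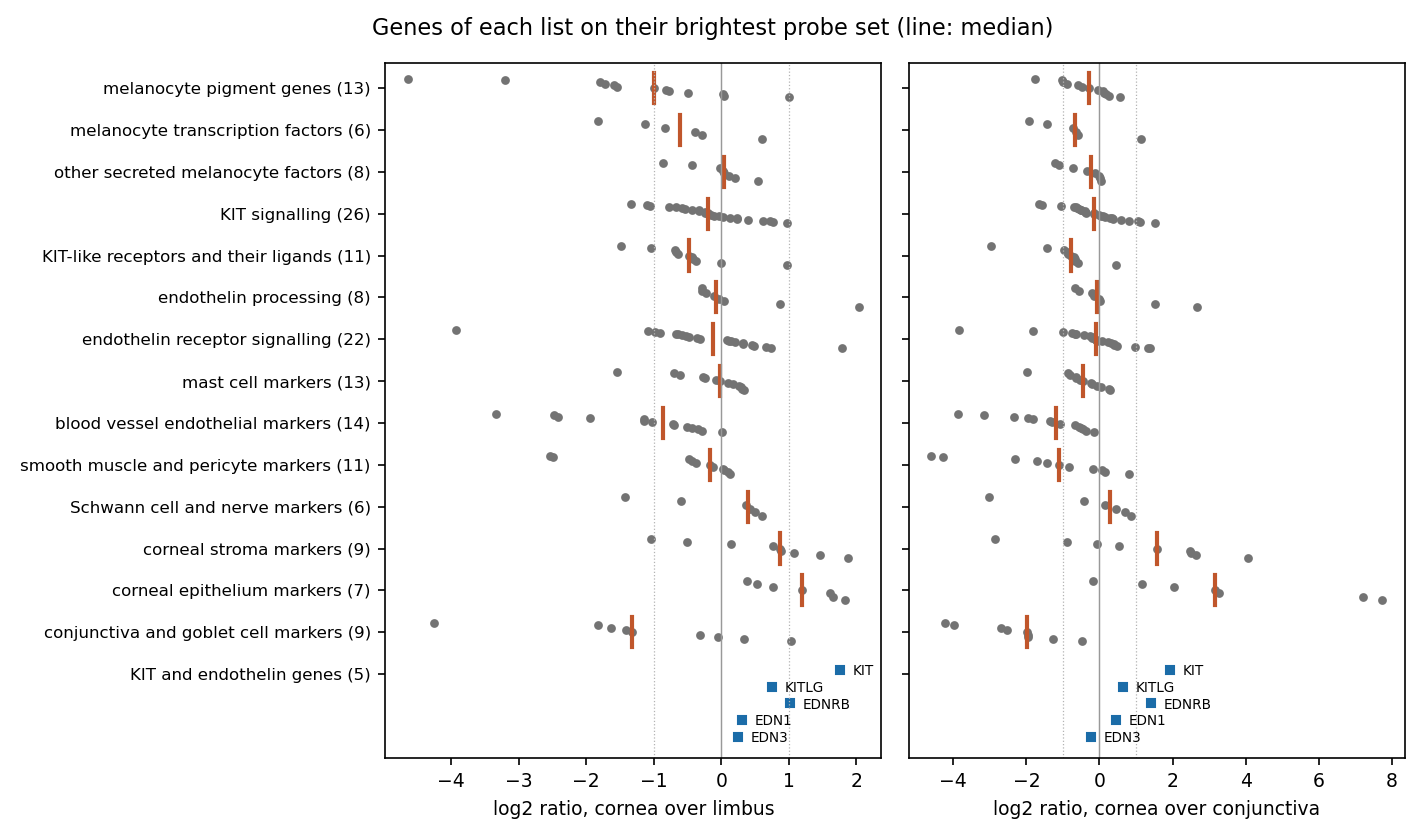
Log2 ratios of cornea over limbus (left) and cornea over conjunctiva (right) for the genes of 14 lists, each gene on its brightest probe set (gray points; orange lines are list medians; numbers of genes in parentheses), with the 5 KIT and endothelin genes as blue squares; dotted lines mark 2-fold. KIT, KITLG, and EDNRB lie to the right of the medians of the signaling lists in both panels. The medians of the vessel and smooth muscle lists are negative in both panels. That of smooth muscle over the limbus is only -0.17, and single smooth muscle markers lie on either side.

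Cell types other than melanocytes can carry these genes. Mast cells are rich in KIT. Of 13 mast cell markers, 4 of which reached 100, 3 were highest in cornea, 0 in limbus, and 10 in conjunctiva, or 0, 6, and 7 with the hybridization controls, and their summed value was 899 in cornea, 992 in limbus, and 1258 in conjunctiva. CPA3, a mast cell protease, was at 37.9, 111, and 148, and its cornea value was 0.343 of that in the limbus. None of the 13 passed the 2-fold rule for the cornea, on a scale that has no zero. The median log2 ratios were -0.02 over the limbus and -0.46 over the conjunctiva. The part of mast cells in the KIT values was not tested.

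Blood vessels are a known source of EDN1, and their smooth muscle responds to it. Of 14 endothelial markers, 0 were highest in the cornea, and 7 were 2-fold or more below each of the other tissues there (2.93% of all genes). Their summed value was 991 in cornea, 2439 in limbus, and 3291 in conjunctiva. PECAM1 was at 45.9, 462, and 675 and VWF at 106, 407, and 940. With a pseudocount of 32 the number of endothelial markers 2-fold or more lower in the cornea was 4, and with the hybridization controls it was 9. The other genes among the 7 were CDH5, EMCN, ERG, FLT1, and TIE1. Of the EDN1 probe sets, the dimmest had the same order as this sum and the 2 brighter ones did not as deposited, and the part of vessels in these values was not tested. Smooth muscle and pericyte markers summed to 802, 1436, and 4291, with ACTA2 at 76.4, 431, and 1847 and TAGLN at 45.5, 265, and 878. As deposited, only ACTA2 and TAGLN among these 11 markers were 2-fold or more below each of the other tissues in the cornea. By highest tissue the 11 split as 2 in cornea, 2 in limbus, and 7 in conjunctiva, or 0, 4, and 7 with the hybridization controls. The median log2 ratios of cornea over conjunctiva were -1.18 for the endothelial list and -1.12 for the smooth muscle list. Those of cornea over limbus were -0.87 and -0.17.

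Of the tissue's own markers, 4 of 7 genes of the corneal epithelium and 3 of 9 of the corneal stroma passed the 2-fold rule for the cornea. Over all genes this share was 1.89%. With the hybridization controls the numbers were 2 and 1. As deposited, the epithelial genes past the rule were KRT12, KRT24, ALDH3A1, and TKT and the stromal genes KERA, PTGDS, and TGFBI. OGN, also of the stromal list, was at 17.6, 36.0, and 129. The summed values of the epithelial list were 46489 in cornea, 20657 in limbus, and 14093 in conjunctiva, and those of the stromal list 40054, 18995, and 12017. Bright genes weigh most in these sums, such as CLU at 7513, 5765, and 8540 and TGFBI at 21896, 10399, and 3549. By highest tissue, 6 epithelial genes were in the cornea and 1, CLU, in the conjunctiva. The stromal genes split as 6 in the cornea and 3 in the conjunctiva (OGN, COL5A1, and CHST6). KERA of the stromal list was at 312, 85.3, and 18.5. The median log2 ratios over the limbus and the conjunctiva were 1.19 and 3.15 for the epithelial list and 0.88 and 1.56 for the stromal list. Since KIT and EDNRB were chosen for a peak in the cornea, a shared direction with these lists was fixed by that choice, and the part of these cell types in their values was not tested. For limbus over conjunctiva the median ratios of the lists were 2.83 and 1.74, against 1.11 for KIT and 1.30 for EDNRB. Of 6 Schwann cell and nerve markers, 4 were highest in the cornea, a number that became 0 with the hybridization controls, and none passed the 2-fold rule for it. GFRA3 of this list was at 62.7, 168, and 508. Of 9 markers of the conjunctiva and its goblet cells, 8 were highest in the conjunctiva and 4 passed the rule for it (1.68% of all genes). MUC1, TFF1, KRT19, KRT7, and KRT13 were 2-fold or more below each of the other tissues in the cornea (2.93% of all genes).

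The probe sets most like KIT and EDNRB were sought by the distance of both log2 ratios of the cornea, over 16811 probe sets and only 3 tissues. Nearest to KIT were CUL4B at 0.041, with values of 1350 in cornea, 406 in limbus, and 364 in conjunctiva, PGAP1 at 0.043, SGTB at 0.058, DOCK5 at 0.071, and MALAT1 at 0.080. Nearest to EDNRB were PPP2R3A at 0.015, with 564, 274, and 213, TMCC1 at 0.027, ZFHX4 at 0.030, KIF13A at 0.035, and PLXDC2 at 0.036. Within a distance of 0.25 there were 21 probe sets of other genes for KIT and 171 for EDNRB. KIT had the larger ratios, so these counts are not compared.

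**Figure D4:**
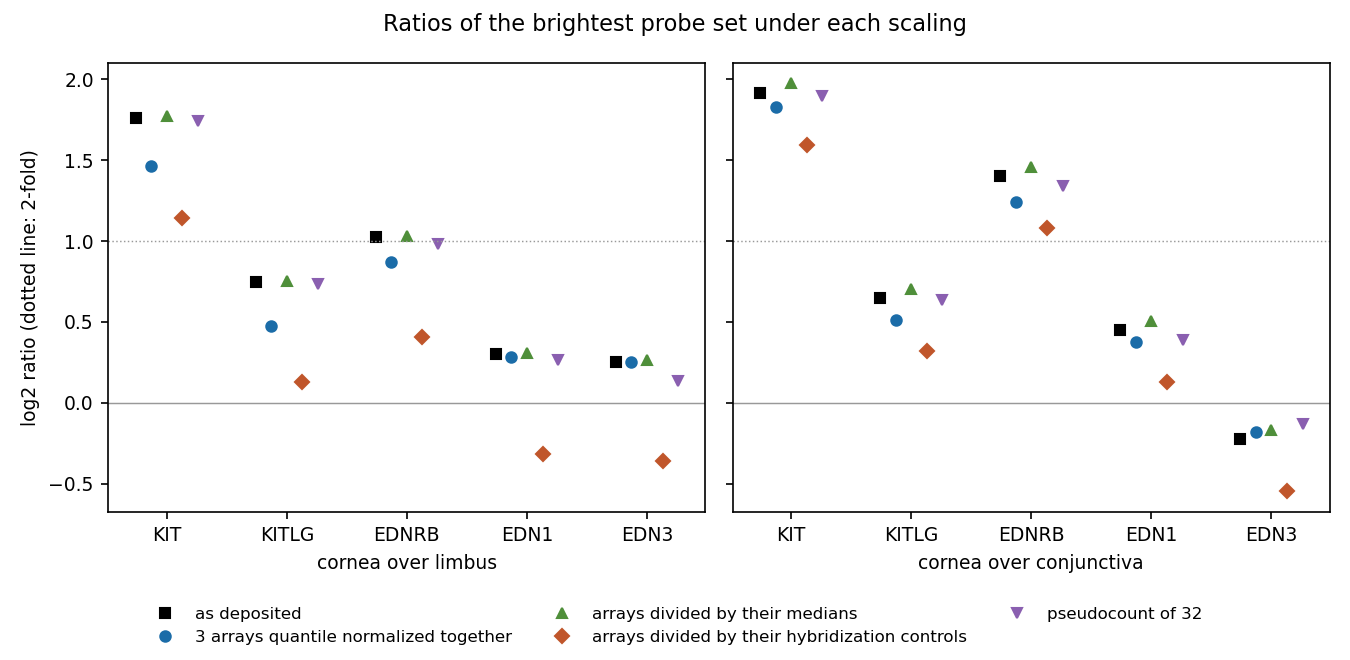
Log2 ratio of cornea over limbus (left) and cornea over conjunctiva (right) of the brightest probe set of KIT, KITLG, EDNRB, EDN1, and EDN3 with the values as deposited (squares) and under 4 alternatives; the dotted line marks 2-fold. KIT stays above the line in both panels under all 4, between 1.15 and 1.77 over the limbus and between 1.60 and 1.98 over the conjunctiva, whereas EDNRB drops to 0.41 over the limbus with the hybridization controls.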

How the data were processed

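Total RNA of the cornea, the limbus, and the conjunctiva was amplified and hybridized to human arrays, 1 per tissue. The authors normalized each array by RMA (justRMA) with a fixed pool of reference arrays, and RMA is also the only tool listed by the submitters' processing notes, with its version not given in the sources used here. What they deposited are linear intensities, with 0 missing and 0 columns of other samples. Arrays normalized apart can keep differences of scale.

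Probe sets were named from the platform annotation: 41097 had 1 symbol, 1801 several, and 11777 are not named here. Computation used Python 3.11.15, numpy 2.4.6, and pandas 2.3.3, and plots matplotlib 3.10.9. The 2-fold rule compared linear values of 1 tissue with each of the others. A gene was read from its brightest probe set by mean log2 value. Calls were checked on simulated arrays.

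The members and the 14 gene lists were chosen with earlier results of these data known. Named are all members, list genes past the 2-fold rule for the cornea in either direction, up to 4 bright genes a list, defining markers, and the 5 genes nearest to KIT and to EDNRB. EDN2, EDNRB-AS1, ECE2, GAB1, TYR, TYRP1, PAX3, SOX10, FGF2, HGF, and CSF1R were added after their values had been seen. Alternatives were quantile normalization, division by array medians or by 18 hybridization control probe sets, a pseudocount of 32, other folds (1.5 and 3), filters, and other probe sets. No test was possible with 1 array per tissue.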

Additional observations from a re-analysis of the deposited data

How the results depend on the processing

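A ratio was counted as moved when it changed by more than 1.5-fold, since there were no replicates. Of 84 recomputed ratios between tissues of the 5 genes, 78 were not moved, 6 were, and 0 of those at 2-fold or more turned. Division by the hybridization controls changed the log2 ratio of cornea over limbus to 1.15 for KIT, 0.13 for KITLG, 0.41 for EDNRB, -0.32 for EDN1, and -0.36 for EDN3, which follows from the shift of all probe sets. The second EDNRB probe set gave 0.25. Of the 13 probe sets, the number highest in the cornea (11 as deposited) was 7 with the hybridization controls. The filters used next leave fewer probe sets, so their counts are not out of 13. All 6 probe sets that reached 100 had their peak in the cornea. Leaving out probe sets whose names end in _x_at or _s_at also removes KIT. Of those left, 5 peaked in cornea, 0 in limbus, and 1 in conjunctiva. The number past the 2-fold rule for the cornea (3) was 1 with the hybridization controls, with a pseudocount of 32, at 3-fold, and without the _x_at and _s_at probe sets, and 7 at 1.5-fold. The number highest in the limbus (0) was 1 after division by array medians and 5 with the hybridization controls. The number highest in the conjunctiva (2) was 1 with either and without the _x_at and _s_at probe sets, and 0 with a value of at least 100. Low intensities limit EDN3 and 3 KITLG probe sets, whose values lie below the array medians in every tissue. They also limit the third EDNRB probe set (204273_at), at 53.4 in cornea, 21.6 in limbus, and 18.1 in conjunctiva. Its values in limbus and conjunctiva lie below the array medians, and with the pseudocount it did not pass the 2-fold rule.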
